A study of Mus musculus with 28 samples.

Results

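The genes described here make, break down, take up or regulate myo-inositol and the other small organic osmolytes, and they are Miox, Isyna1, Impa1, Impa2, Slc5a3, Slc5a11, Slc6a12, Slc6a6, Akr1b3 and Nfat5. They were named by function, mainly as kidney genes with the liver as a contrast, and they were also selected on measured values, the kidney NMN and water levels of these libraries being known, with no stated threshold. All 10 were found by symbol among the 54446 genes that each library lists. Gene expression was measured by sequencing of polyA RNA from the liver and the kidney of male C57BL/6 mice aged 8 weeks (C57BL6J in the methods of the study). The mice were gavaged for 7 days with water or with nicotinamide mononucleotide (NMN), a precursor of the coenzyme NAD+, to test the subacute toxicity of NMN. One gavage per day gave 1340 mg/kg/d, with 4 NMN and 4 water mice per organ, and gavage 2 times per day gave 2680 mg/kg/d, with 3 NMN and 3 water mice per organ. The water mice of each schedule were gavaged as often as its NMN mice, and no genetic change was stated for any group. Nothing states which liver and which kidney came from the same mouse.

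Reads counted on genes ran from 15354270 to 15696435 in the kidneys of water mice gavaged once daily and from 13174264 to 14006288 in those of the NMN mice. In the kidneys of mice gavaged 2 times per day they ran from 16358886 to 18983689 with water and from 22922994 to 33872983 with NMN. The liver libraries held 12688324 to 16455228 counted reads in the schedule of one daily gavage and 17573184 to 20635269 in the other. NMN and water libraries of the kidney therefore differed in depth in both schedules, in opposite directions. Mitochondrial genes took a mean of 9.71% of counted reads with water and 9.48% with NMN in the kidneys of mice gavaged once daily, but 20.6% and 20.3% in those of the other schedule. Reads without a unique place made up 10.3 to 11.6% and 18.9 to 19.95% of the kidney libraries of these schedules. The kidney libraries of the schedules thus stood apart from each other in these shares, while NMN and water mice within a schedule had similar ones. Values are given per library as CPM, a gene's count relative to the library's total after scaling by the trimmed mean of M values (TMM), always in the order of the replicate numbers. In whole tissue, fewer cells of a type and less RNA per cell cannot be told apart.

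Myo-inositol is a cyclic polyol that cells use both for phosphoinositide signalling and as an osmolyte, a solute that balances a salty surrounding without disturbing proteins. The cells of the renal medulla take up inositol, betaine and taurine through sodium-coupled transporters and make sorbitol with aldose reductase, and the transcription factor NFAT5 is known to switch on the genes for these steps when tonicity rises. The proximal tubule of the kidney is the main site at which inositol is broken down, by the oxygenase that Miox encodes. In the liver, the same transporters and enzymes serve cell volume control, betaine and taurine handling and inositol phosphate synthesis.

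Windows of 250 bases before an annotated start site were at hand for 6 of the 10 genes (Miox, Isyna1, Slc5a3, Slc5a11, Slc6a12 and Nfat5), 10 windows in all, from RefSeq on GRCm38.p6. All 250 bases of each were searched for TGGAAA, the core of the tonicity element that NFAT5 binds, and for its reverse complement TTTCCA. The stretches shown are cut where the gene's annotation begins. Windows of 4 genes are shown because their genes carry the results that follow: Miox at chr15:89334223-89334397, Isyna1 at chr8:70594231-70594372, Slc5a3 at chr16:92058072-92058321 and one of the start sites of Slc6a12 at chr6:121342324-121342573, all on the plus strand and ending before the first annotated transcribed base. Capitals mark the core.
Miox: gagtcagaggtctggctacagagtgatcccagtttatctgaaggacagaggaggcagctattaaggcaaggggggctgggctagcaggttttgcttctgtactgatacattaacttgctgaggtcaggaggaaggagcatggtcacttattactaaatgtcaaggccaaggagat
Isyna1: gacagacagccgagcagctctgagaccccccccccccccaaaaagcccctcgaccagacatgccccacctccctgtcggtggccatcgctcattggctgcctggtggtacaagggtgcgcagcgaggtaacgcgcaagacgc
Slc5a3: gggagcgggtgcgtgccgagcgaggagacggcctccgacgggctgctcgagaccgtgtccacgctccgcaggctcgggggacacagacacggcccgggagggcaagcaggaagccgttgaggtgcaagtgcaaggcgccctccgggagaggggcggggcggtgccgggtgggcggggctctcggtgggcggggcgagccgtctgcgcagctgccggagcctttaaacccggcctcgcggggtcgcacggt
Slc6a12: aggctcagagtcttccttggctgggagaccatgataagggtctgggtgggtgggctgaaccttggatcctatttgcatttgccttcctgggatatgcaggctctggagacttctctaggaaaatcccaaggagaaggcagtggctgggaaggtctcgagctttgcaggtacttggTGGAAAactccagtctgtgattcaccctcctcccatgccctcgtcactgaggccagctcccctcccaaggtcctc
The core was found in 1 of the 10 windows, and so in 1 of the 6 genes, at position -75 from that start site of Slc6a12. Among all 32851 windows of this kind, 18.6% held it. A match is a run of letters and not a shown binding site, and the absence of a match says only that these letters are not in the window.

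In the GENCODE M21 annotation of GRCm38, Miox (ENSMUSG00000022613.8) lies at chr15:89334398-89337015 and Slc5a3 (ENSMUSG00000089774.2) at chr16:92058322-92087473, both on the plus strand. Isyna1 (ENSMUSG00000019139.10) lies at chr8:70594373-70597290 and Slc6a12 (ENSMUSG00000030109.15) at chr6:121343076-121365775, also on the plus strand. Counting ignored strand, and 23.6% of the exonic bases of Impa2 are shared with B430212C06Rik on the other strand, so its values are uncertain. Shared exonic bases made up 4.47% in Impa1 (Gm38303), 1.46% in Slc5a3 (Mrps6 and Gm49711) and 1.38% in Slc6a6 (Gm44981), and none in the other members.

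In the kidney of water mice, Miox stood far above the rest. On a per-length scale (CPM per kilobase of merged exon, FPKM), its level was 863 ± 57.3 (SD, n = 4) in the schedule of one daily gavage and 823 ± 31.7 (SD, n = 3) in the other. The taurine transporter gene Slc6a6 came next, at 30.6 ± 6.67 and 31.6 ± 5.01 FPKM. Isyna1, which encodes inositol-3-phosphate synthase, followed at 17.2 ± 2.26 and 12.7 ± 1.03 FPKM. With one daily gavage, Slc5a11 (12.7 FPKM), Slc5a3 (12.04 FPKM), Akr1b3 (11.5 FPKM) and Impa1 (10.8 FPKM) overlapped their neighbours in that order, so no rank is read among them. Nfat5 (4.54 FPKM), Impa2 (1.30 FPKM) and Slc6a12 (0.905 FPKM) were lowest.

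The liver of water mice had a different order. Slc6a12, the betaine transporter gene, was highest, at 33.7 ± 2.64 (SD, n = 4) and 42.3 ± 3.98 FPKM (SD, n = 3). Impa1, an inositol monophosphatase gene, and Slc6a6 followed at 17.3 ± 1.47 and 13.5 ± 3.10 FPKM with one daily gavage, and overlapped. In the same mice Isyna1 was at 5.70 ± 2.40 FPKM and every other member below 2 FPKM. Slc6a12 was thus the lowest or next to lowest member in the kidney and the highest in the liver, at 37.2 times the kidney's mean CPM in one schedule and 36.7 times in the other with TMM scaling, and at 19.1 and 18.8 times with CPM over the deposited totals.

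Set against the liver of water mice of the same schedule, 8 of the 10 members were higher in the kidney and Slc6a12 and Impa1 lower, and edgeR called all 10 in both schedules. It called 66.9% of all tested genes in one schedule (36.1% higher and 30.9% lower) and 70.5% in the other (39.5% higher and 31% lower). Because the members were named as kidney genes, these counts describe them and are no evidence about them. The kidney's mean CPM was 24.9 and 17.2 times the liver's for Slc5a3, 11.7 and 8.13 times for Akr1b3, 4.04 and 4.64 times for Nfat5, and 3.03 and 4.26 times for Isyna1. For Slc6a6 and Impa2 it was 2.28 and 2.18 times and 2.14 and 2.46 times the liver's. Impa1 was at 0.624 and 0.725 of the liver's mean with TMM scaling, but higher in the kidney when CPM was taken over the deposited totals or over totals without mitochondrial genes. With CPM over the totals the ratios of kidney to liver were about 2 times as large, for example 48.9 and 33.6 for Slc5a3. The median kidney-to-liver log2 difference of all genes was 0.12 and 0.17 with TMM and 0.91 in both schedules with the totals. Without kidney water replicate 2 the call of Impa1 at 2680 mg/kg/d was lost (edgeR adjusted p = 0.0654).

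Miox and Slc5a11, a sodium and inositol cotransporter gene, were close to absent from the liver. Slc5a11 had 0, 0, 0 and 0 counts in the livers of water mice gavaged once daily and 3, 9 and 0 counts in those of the other schedule. Its kidney mean of 34.9 CPM in the schedule of one daily gavage was at least 109-fold higher than 3 counts per liver library would be, a floor that covers counting error only. Miox reached 3.08, 3.45, 3.57 and 2.38 CPM in the livers of water mice gavaged once daily and 3.80, 2.75, 2.64 and 4.07 CPM in those of the NMN mice. In the livers of the other schedule it had 1, 11 and 7 counts with water and 22, 0 and 0 counts with NMN.

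Kidney proximal tubule genes were found in the same liver libraries. The 9 proximal tubule markers other than Slc27a2, a fatty acid transport gene that the liver itself expresses, summed to 32.5, 36.2, 33.1 and 34.2 CPM in the livers of water mice gavaged once daily. Miox, which is not among these 9 markers, was at a level of 9.48, 9.52, 10.8 and 6.97 percent of that sum. In the kidneys of the water mice of that schedule it was at 12.1, 12.5, 11.5 and 13.6 percent of the sum there. The livers of the NMN mice of that schedule held 34.1, 29.6, 31.7 and 37.4 CPM of the 9 markers. In the schedule of 2680 mg/kg/d the livers of the water mice held 6.60, 7.93 and 4.82 CPM and those of the NMN mice 23.98, 2.17 and 2.17 CPM, so that NMN replicate 1 stood apart from the other 5 liver libraries. The part that kidney RNA plays in the liver values of Miox was not tested, and log2 fold changes of named genes at that dose are also given without this liver library.

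**Figure D1:**
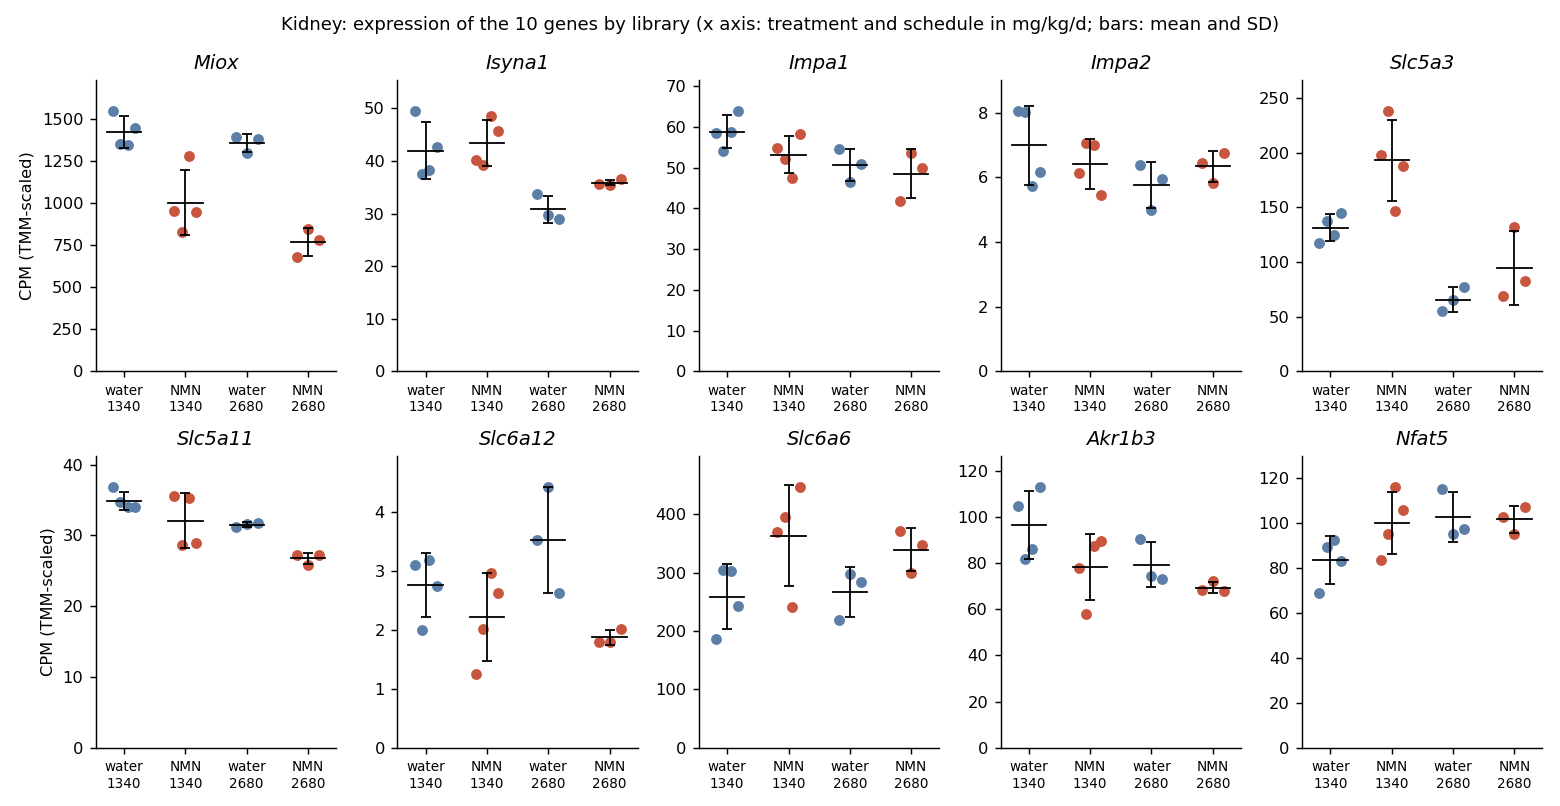
Kidney expression of the 10 genes by library, in CPM with TMM-scaled library sizes on a linear axis from 0, for water (blue) and NMN (red) mice of both schedules, with bars for the mean and SD (n = 4 per group at 1340 mg/kg/d, n = 3 at 2680 mg/kg/d). Every NMN library lies below every water library for Miox in both schedules, and Slc5a3 is lower in the water mice of 2680 mg/kg/d than in those of 1340 mg/kg/d.

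The comparison of NMN with water in the kidney asks what gavage of NMN changes in that organ. Because the list was named with this comparison known, the values below are a description. Calls of the members by a test are only counted, beside the shares of all genes, and are not read as results. Miox, whose oxygenase opens the inositol ring to D-glucuronate, was at 1549.5, 1353, 1349 and 1446 CPM in the kidneys of water mice gavaged once daily and at 955, 831, 1281 and 948 CPM in those of NMN mice. In the other schedule it was at 1393, 1298 and 1383 CPM with water and 681, 847 and 781 CPM with NMN. The groups did not overlap in either schedule, with NMN lower by 0.50 on the log2 scale (standard error 0.12) at 1340 mg/kg/d and by 0.82 (standard error 0.10) at 2680 mg/kg/d. NMN replicate 3 of the lower dose stood nearest to the water mice, and without it the log2 difference was -0.65. At 2680 mg/kg/d the difference lay between -0.89 and -0.74 when each library was left out in turn.

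Proximal tubule markers were lower in the NMN mice as well. The 10 markers summed to 15552, 13705, 14821 and 14030.1 CPM in the kidneys of water mice gavaged once daily and to 13442, 11823, 11987 and 12835 CPM in those of NMN mice, with no overlap. At 2680 mg/kg/d they summed to 14020.0, 14479.8 and 15492 CPM with water and to 11369, 14141 and 12530.4 CPM with NMN, and the groups overlapped. NMN was lower for 9 and 8 of the 10 markers, none of them called, and the most abundant were Slc34a1 in one schedule and Acsm2 in the other. Miox as a percent of that sum was 9.81 ± 0.509 (SD, n = 4) with water and 8.05 ± 1.76 with NMN at 1340 mg/kg/d, where the libraries overlapped. It was 9.28 ± 0.571 (SD, n = 3) with water and 6.07 ± 0.143 with NMN at 2680 mg/kg/d, with no overlap (8.93 to 9.94 against 5.99 to 6.24). At the higher dose Miox was thus also lower relative to these markers.

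**Figure D2:**
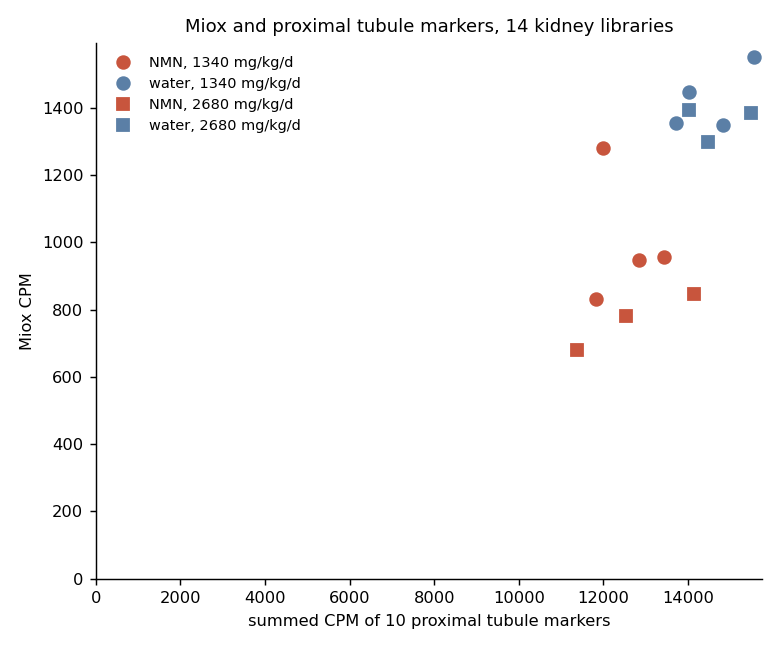
Miox (CPM, vertical axis) against the summed CPM of 10 proximal tubule markers (horizontal axis) in the 14 kidney libraries, one point per library, with circles for 1340 and squares for 2680 mg/kg/d and blue for water and red for NMN. The 3 NMN libraries of 2680 mg/kg/d lie below all water libraries in Miox, and 1 of the 3 lies within the range of the marker sums of the water libraries, while 1 NMN library of 1340 mg/kg/d lies close to the water mice in Miox.

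The genes that make inositol differed little between NMN and water in the kidney. Isyna1, the first step from glucose 6-phosphate, was at 49.5, 37.5, 38.3 and 42.7 CPM with water and 40.1, 39.3, 48.5 and 45.8 CPM with NMN in mice gavaged once daily, which overlapped. At 2680 mg/kg/d it was at 33.7, 29.8 and 28.97 CPM with water and 35.7, 35.5 and 36.5 CPM with NMN, higher in each NMN library by a log2 difference of 0.22 (standard error 0.08). Impa1 ran from 41.9 to 63.9 CPM and Impa2, the other inositol monophosphatase gene, from 4.98 to 8.05 CPM over the 14 kidney libraries. Their NMN and water libraries overlapped in both schedules, with log2 differences from -0.14 to 0.14, and from -0.20 to 0.22 when each library was left out in turn.

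Of the inositol uptake genes, Slc5a3 had a higher and Slc5a11 a lower mean with NMN than with water in both schedules, and the libraries of each overlapped in one of them. Slc5a3 encodes SMIT1, the inositol carrier that the medulla uses against high tonicity. It was at 117, 138, 125 and 145 CPM in water mice gavaged once daily and 199, 238, 147 and 188 CPM in NMN mice, higher in each NMN library by a log2 difference of 0.56 (standard error 0.12). At 2680 mg/kg/d it was at 54.96, 65.02 and 77.3 CPM with water and 68.8, 132 and 82.4 CPM with NMN, where the groups overlapped and only NMN replicate 2 stood well above the water mice (log2 difference 0.53, standard error 0.29). Without that library the log2 difference was 0.21. The water mice of the schedules themselves differed, with all Slc5a3 values of the 2680 mg/kg/d schedule below all those of the other. The libraries of the schedules also stood apart in their shares of mitochondrial and not unique reads, given above, and the part of this in the Slc5a3 values was not tested. Slc5a11, which encodes SMIT2, the carrier that recovers inositol from the tubule fluid, was at 31.1, 31.6 and 31.8 CPM with water and 27.2, 25.8 and 27.2 CPM with NMN at 2680 mg/kg/d, lower in each NMN library (log2 difference -0.23, standard error 0.08). At 1340 mg/kg/d its libraries overlapped, at 36.8, 34.7, 34.03 and 34.1 CPM with water and 35.6, 28.6, 35.4 and 28.9 CPM with NMN.

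Among the genes for other osmolytes, the mean of Slc6a6 was higher and those of Akr1b3 and Slc6a12 were lower in the kidneys of NMN mice, and each overlapped the water mice at 1340 mg/kg/d. Slc6a6 was at 187, 304, 303 and 242 CPM with water and 369.8, 396, 242 and 446 CPM with NMN in mice gavaged once daily, which overlapped through NMN replicate 3. In the other schedule it was at 219, 298 and 284 CPM with water and 372, 299 and 348 CPM with NMN, higher in each NMN library by a narrow margin (log2 difference 0.35, standard error 0.12). Akr1b3, the aldose reductase that makes sorbitol, was at 105, 81.9, 86.1 and 113 CPM with water and 77.6, 58.02, 87.4 and 89.7 CPM with NMN at 1340 mg/kg/d, which overlapped. It was at 90.4, 74.2 and 73.1 CPM with water and 68.1, 72.2 and 67.8 CPM with NMN at 2680 mg/kg/d, lower in each NMN library by a log2 difference of -0.19 (standard error 0.09). Without water replicate 1 of that schedule the log2 difference was -0.09 for Akr1b3 and 0.22 for Slc6a6. Slc6a12, scarce in the kidney, was at 3.52, 4.42 and 2.62 CPM with water and 1.80, 1.80 and 2.02 CPM with NMN at 2680 mg/kg/d (log2 difference -0.90, standard error 0.23) and overlapped at 1340 mg/kg/d. Nfat5, the regulator, was at 68.7, 89.3, 92.6 and 82.9 CPM with water and 83.6, 95.3, 116 and 106 CPM with NMN at 1340 mg/kg/d, with overlap, and had a log2 difference of -0.01 (standard error 0.09) at 2680 mg/kg/d.

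Counted together, 2 of the 10 members had NMN and water libraries that did not overlap in the kidney at 1340 mg/kg/d (Slc5a3 higher, Miox lower), where 5.12% of all tested genes did not (2.29% higher and 2.83% lower). At 2680 mg/kg/d 6 of the 10 did not overlap (Isyna1 and Slc6a6 higher; Miox, Slc5a11, Slc6a12 and Akr1b3 lower), against 17.2% of all tested genes (8.47% higher and 8.69% lower). By the quasi-likelihood test of edgeR, with p-values adjusted by Benjamini-Hochberg, 0 of 10 were called at 1340 mg/kg/d (5 had an unadjusted p under 0.05, as did 8.94% of all tested genes, and DESeq2 called 2), beside 0.12% of all tested genes. Miox was the 1 member called at 2680 mg/kg/d (5 had an unadjusted p under 0.05, as did 11.1% of all tested genes), beside 0.4% of all tested genes (0.282% called lower), and that call was lost without water replicate 3 (log2 difference -0.80). Nothing is read from these counts. Marker sums of some other cell types differed in these kidneys in one schedule each. The 4 markers of the thick ascending limb summed to 2310.0, 2392, 2219 and 2005 CPM with water and 2757, 2861, 2596 and 2871 CPM with NMN at 1340 mg/kg/d, without overlap, but none of the 4 was called and at 2680 mg/kg/d their sums overlapped (1.06 times the water mean). In that schedule the summed cholangiocyte markers, which the collecting system of the kidney also expresses, were 1.15 times the water mean without overlap. The inner medulla markers summed to 110.6, 114.4 and 96.2 CPM with water and 78.6, 72.3 and 96.5 CPM with NMN in the same schedule. Their NMN mean was 0.77 times the water mean, and the groups overlapped. Aqp4 was the most abundant of these markers with water (67.5 CPM). Slc14a2 was the most abundant with NMN and went the other way, from a mean of 30.7 CPM with water to 36.9 CPM with NMN. Cela1 was the only gene of the exocrine pancreas list with counts in that schedule and had a mean of 35.3 CPM with water and 28.4 CPM with NMN. Star made up nearly all of the adrenal cortex list (3.85 and 3.19 CPM), with Cyp11b1 and Cyp11b2 at 0. Their part in the values of the members was not tested.

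**Figure D3:**
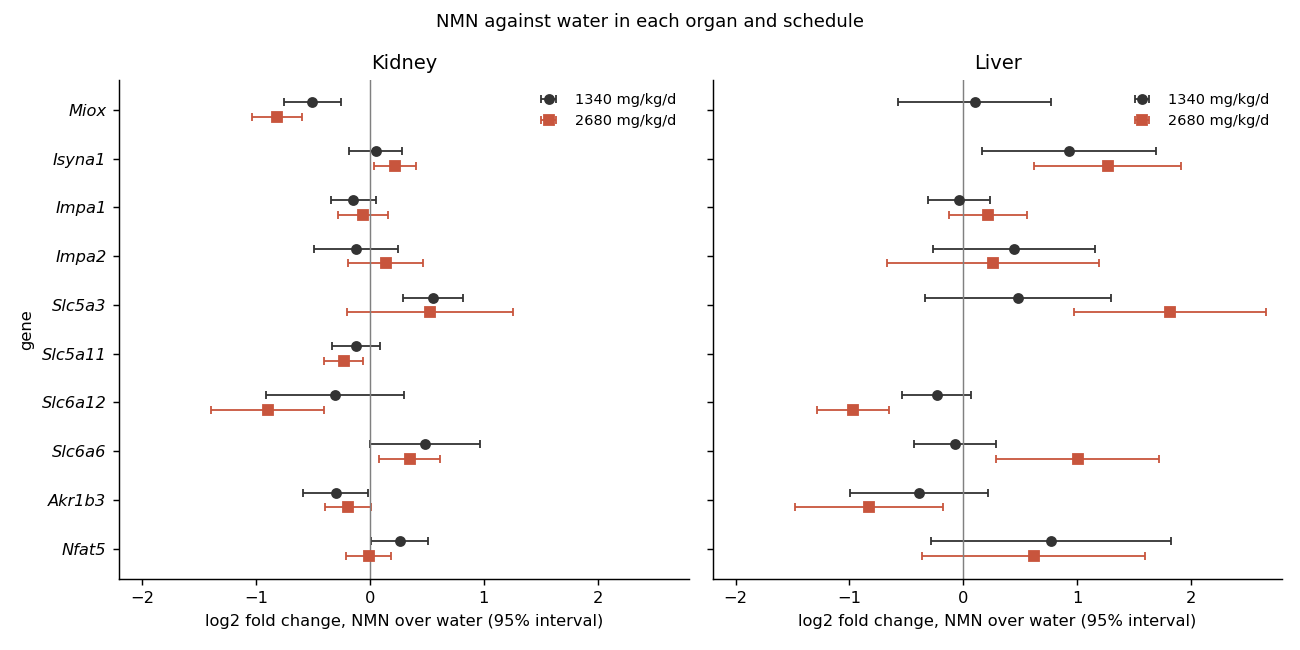
Log2 fold change of NMN over water (horizontal axis) with its 95% interval for the 10 genes (vertical axis) in the kidney and the liver, with black circles for 1340 and red squares for 2680 mg/kg/d. Miox lies at -0.50 and -0.82 in the kidney, where intervals show the error of a description and no test, and in the liver at 2680 mg/kg/d the genes that passed the adjusted threshold are Isyna1 (1.27), Slc5a3 (1.81) and Slc6a12 (-0.97), although the unadjusted intervals of Slc6a6 and Akr1b3 also leave out 0. Genes without a point were too low to test.

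Across the 14 kidney libraries, with the mean of each schedule subtracted from log2 CPM, Miox went with Slc5a11 (Pearson r = 0.82) and Akr1b3 (r = 0.69) and against Slc6a6 (r = -0.78) and Slc5a3 (r = -0.68). With the mean of each group of mice subtracted instead, r was 0.55 for Slc5a11, 0.62 for Akr1b3, -0.79 for Slc6a6 and -0.19 for Slc5a3. For Isyna1 it turned from -0.24 to 0.65. These are descriptions over libraries that share depth and tissue makeup, and they carry no test. The contrast of Miox with Slc6a6 thus remained within the groups, and that with Slc5a3 mostly did not. NMN replicate 3 at 1340 mg/kg/d held the highest Miox and the lowest Slc5a3 and Slc6a6 values of its group.

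Of 10915 genes with at least 5 CPM on average in the kidney (scaled over the kidney libraries alone, with the mean of each schedule subtracted from log2 CPM), those whose values ran most like Miox over the 14 libraries were Defb29 (r = 0.97), a beta-defensin gene, Aadac (r = 0.95), a deacetylase gene, Dao (r = 0.95), the D-amino acid oxidase gene, Igfbp7 (r = 0.94), which encodes a secreted binding protein, and Fzd8 (r = 0.93), a Wnt receptor gene. Defb29 was at 32.3, 23.3, 25.7 and 26.6 CPM with water and 17.8, 16.9, 21.96 and 17.3 CPM with NMN at 1340 mg/kg/d, and at 37.1, 30.3 and 29.2 and 13.5, 18.3 and 16.6 CPM at 2680 mg/kg/d. NMN was lower without overlap in both. These genes were picked for their likeness to a member over the same NMN and water libraries, so their own differences follow from that choice and are a description. Dao was at 253, 221 and 244 CPM with water and 174, 188 and 175 CPM with NMN at 2680 mg/kg/d, again without overlap. The genes most like Slc5a3 were Vnn1 (r = 0.91), the pantetheinase gene, Atp1b1 (r = 0.91), the beta subunit of the sodium pump, Decr2 (r = 0.89), a peroxisomal reductase gene, Slain2 (r = 0.89), a microtubule factor gene, and Fmo1 (r = 0.88), a flavin monooxygenase gene. Atp1b1 was at 1487, 1497, 1424 and 1396 CPM with water and 1941, 1868, 1620.5 and 1790.3 CPM with NMN at 1340 mg/kg/d, higher in each NMN library. It was at 1414, 1747 and 1667 CPM with water and 1700.0, 2176 and 1851 CPM with NMN in the other schedule, where the groups overlapped.

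**Figure D4:**
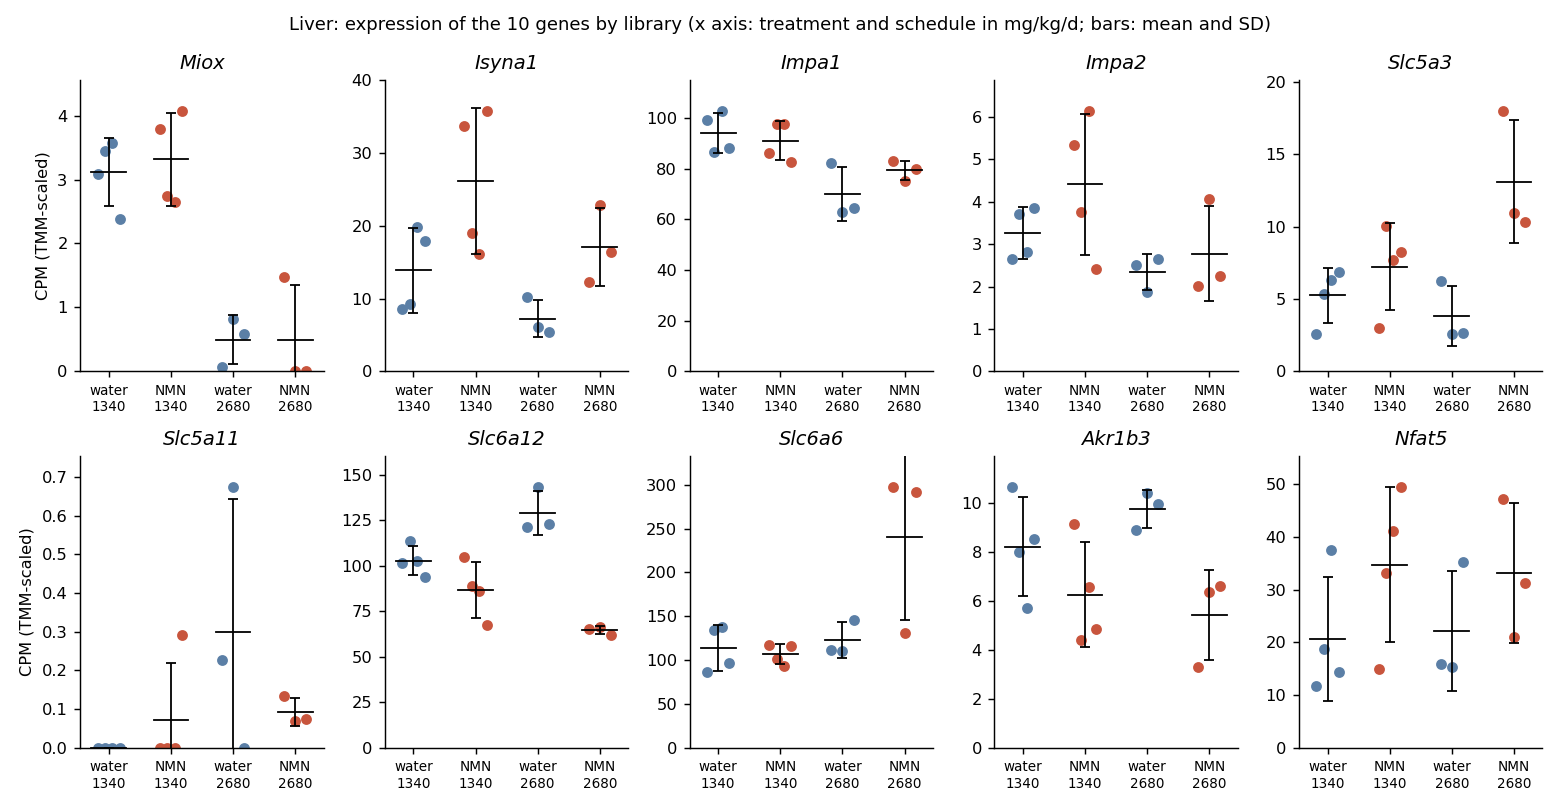
Liver expression of the 10 genes by library, in CPM with TMM-scaled library sizes on a linear axis from 0, for water (blue) and NMN (red) mice of both schedules, with bars for the mean and SD (n = 4 per group at 1340 mg/kg/d, n = 3 at 2680 mg/kg/d). At 2680 mg/kg/d every NMN library lies above every water library for Isyna1 and Slc5a3 and below it for Slc6a12 and Akr1b3.

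The same comparison in the liver was tested over all genes. The liver was named as a contrast when the members were chosen, with earlier results of these libraries known, so its p-values do not come from an independent choice of genes. Calls of the members in the liver are therefore a description as well. At 2680 mg/kg/d edgeR called the inositol synthase gene Isyna1 and the inositol carrier gene Slc5a3 higher and the betaine carrier gene Slc6a12 lower. These were 3 of the 8 members with enough counts for the test, 2 higher and 1 lower, beside 7.08% of all tested genes called in either direction (3.05% higher and 4.03% lower), and 5 of the 8 had an unadjusted p under 0.05, as did 24.6% of all tested genes. In mice gavaged once daily, 0 of 9 tested members were called by edgeR (1 had an unadjusted p under 0.05, as did 6.86% of all tested genes, and DESeq2 called 0), beside 0.0161% of all tested genes. Miox and Slc5a11 at 2680 mg/kg/d and Slc5a11 at 1340 mg/kg/d were too low for a test.

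Isyna1 was at 10.2, 6.14 and 5.40 CPM in the livers of water mice gavaged 2 times per day and at 12.2, 22.9 and 16.3 CPM in those of NMN mice. Each NMN library was above each water library, with a log2 fold change of 1.27 (95% interval 0.62 to 1.91, standard error 0.29, edgeR adjusted p = 0.0290). The call was lost without water replicate 2 (adjusted p = 0.126), water replicate 3 (0.0876), NMN replicate 2 (0.0579) or NMN replicate 3 (0.0858), and when all 14 liver libraries were fitted together (0.0579). Without NMN replicate 1, the library with kidney markers, the log2 fold change was 1.43 (edgeR adjusted p = 0.0159). At 1340 mg/kg/d Isyna1 was at 8.51, 9.25, 19.9 and 17.9 CPM with water and 33.7, 18.98, 16.1 and 35.8 CPM with NMN, which overlapped (log2 fold change 0.92, standard error 0.35, edgeR adjusted p = 0.630).

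Slc5a3 was at 6.22, 2.62 and 2.66 CPM with water and 18.01, 10.98 and 10.3 CPM with NMN at 2680 mg/kg/d, without overlap. Its log2 fold change of 1.81 (95% interval 0.97 to 2.66, standard error 0.38) had an edgeR adjusted p of 0.0206. NMN replicate 1 held both the highest Slc5a3 value and the most kidney markers, and without it the log2 fold change was 1.47 (edgeR adjusted p = 0.0441). The call was lost without water replicate 2 (edgeR adjusted p = 0.0946) or water replicate 3 (0.0682). In the 1340 mg/kg/d libraries Slc5a3 was at 2.55, 5.35, 6.29 and 6.87 CPM with water and 2.98, 10.1, 7.67 and 8.24 CPM with NMN, within the spread of the libraries (log2 fold change 0.48, from 0.25 to 0.74 with a library left out, edgeR adjusted p = 0.852).

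Slc6a12 fell from 121, 143 and 123 CPM with water to 65.4, 66.3 and 62.2 CPM with NMN at 2680 mg/kg/d. The 3 NMN libraries lay close together and far below the lowest water library. The log2 fold change was -0.97 (95% interval -1.28 to -0.66, standard error 0.14, edgeR adjusted p = 0.00428), and it passed the threshold under all 14 alternatives run for it, with an adjusted p of at most 0.0312. Without NMN replicate 1 it was -1.01 (edgeR adjusted p = 0.00554). With the 1340 mg/kg/d schedule Slc6a12 was at 102, 113, 103 and 93.7 CPM with water and 105, 88.7, 86.1 and 67.4 CPM with NMN, which overlapped (log2 fold change -0.24, from -0.33 to -0.15 with a library left out, standard error 0.14, edgeR adjusted p = 0.805).

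The taurine carrier gene and aldose reductase did not pass the test. Slc6a6 was at 111, 110.4 and 146 CPM with water and 297, 131 and 292 CPM with NMN at 2680 mg/kg/d, where NMN replicate 2 lay among the water mice (log2 fold change 1.00, standard error 0.31, edgeR adjusted p = 0.0951). It passed under 4 of 14 alternatives, among them DESeq2 (adjusted p = 0.00514) and the fit without NMN replicate 2 (edgeR adjusted p = 0.00237). Akr1b3 was at 8.87, 10.4 and 9.97 CPM with water and 3.29, 6.36 and 6.60 CPM with NMN, without overlap but short of the threshold (log2 fold change -0.83, standard error 0.29, edgeR adjusted p = 0.114). Nfat5 ran from 15.3 to 35.3 CPM with water and from 21.0 to 47.3 CPM with NMN at that dose (log2 fold change 0.62, standard error 0.42, edgeR adjusted p = 0.416). Without NMN replicate 1 the log2 fold change was 0.78 for Slc6a6 (edgeR adjusted p = 0.233), -0.60 for Akr1b3 (0.211) and 0.23 for Nfat5 (0.812). The value of Nfat5 ranged up to 1.15, without water replicate 3, and was 0.40 without water replicate 2.

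Impa1 and Impa2 showed no difference that this depth and number of mice could resolve in the liver. The 95% interval of the log2 fold change of Impa1 ran from -0.31 to 0.24 at 1340 mg/kg/d and from -0.12 to 0.55 at 2680 mg/kg/d. Without NMN replicate 1 of the higher dose the log2 fold change was 0.15 for Impa1 and 0.42 for Impa2, with edgeR adjusted p-values of 0.680 and 0.626. For Miox at 1340 mg/kg/d it ran from -0.57 to 0.77 (edgeR adjusted p = 0.971). At that dose Slc6a6 (-0.07), Akr1b3 (-0.39) and Nfat5 (0.77) had edgeR adjusted p-values of 0.959, 0.841 and 0.815 for these log2 fold changes. With a library left out, Akr1b3 ran from -0.61 to -0.24 and Nfat5 from 0.53 to 1.25.

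Of all members, 4 had NMN and water libraries in the liver that did not overlap at 2680 mg/kg/d (Isyna1 and Slc5a3 higher, Slc6a12 and Akr1b3 lower), where 29.8% of all tested genes did not overlap (13.8% higher and 16% lower), and none at 1340 mg/kg/d, where 3.53% did not. In the exact permutation test of single genes on log2(CPM + 0.5), two-sided, these 4 had p = 0.1 at 2680 mg/kg/d, the smallest that 3 against 3 allows. The marker genes of the liver were lower as well. The 6 hepatocyte markers, of which Alb was the most abundant, summed to 240095, 228945 and 211744 CPM with water and 156015, 181942 and 182729 CPM with NMN at 2680 mg/kg/d, without overlap, and 5 of the 6 were lower, with Ttr called (log2 fold change -0.97, edgeR adjusted p = 0.00227). Some lists of other tissues differed through single genes in the same livers. The sum of the exocrine pancreas list was Cela1 alone, a mean of 31.7 CPM with water and 6.91 CPM with NMN, while Prss2, Cpa1 and Pnlip were at 0 in all 6 libraries. The inner medulla list was nearly all Aqp4 (7.96 and 1.13 CPM), and the adrenal cortex list nearly all Star (1.96 and 4.05 CPM), with Cyp11b1 and Cyp11b2 at 0. Their part in the values of Slc6a12 and the other members was not tested.

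The difference of the NMN effect between schedules was fitted as an interaction term on all 14 libraries of an organ. In the liver it was called for 0.0746% of 13412 genes and for 0 of 9 members by edgeR (3 had an unadjusted p under 0.05, as did 8.6% of all tested genes, and DESeq2 called 0). The difference of the log2 fold changes was 1.34 for Slc5a3 (standard error 0.59, edgeR adjusted p = 0.526), -0.73 for Slc6a12 (standard error 0.19, adjusted p = 0.196) and 0.35 for Isyna1 (from 0.11 to 0.65 with a library left out, standard error 0.51, adjusted p = 0.909). A call at 2680 mg/kg/d and none at 1340 mg/kg/d is thus no shown difference between doses. Nor does a missing interaction call in the liver show equal effects. On simulated counts edgeR recovered 11% of the genes changed by a log2 fold of 1 in that fit. In the kidney the interaction was called for 1 of 15989 genes (0.00625%). The members are not read in it, since their choice used the kidney values.

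The other genes of these pathways were followed in 5 lists of 72 genes, which were chosen with earlier results of these data known. Their calls and p-values are therefore a description as well, and refits of the same libraries give no independent support. At 1340 mg/kg/d 0 of these genes were called in either organ by edgeR or DESeq2, and the 8 genes called in the liver and the 1 called in the kidney were all found in mice gavaged 2 times per day. Of all tested genes, edgeR called 0.0161% in the liver and 0.12% in the kidney at 1340 mg/kg/d and 7.08% and 0.4% at 2680 mg/kg/d, so that calls were scarce at the lower dose for any list. An unadjusted p under 0.05 was found for 6.86% and 8.94% at the lower and for 24.6% and 11.1% at the higher dose, in the same order. Median log2 fold changes of the lists in the kidney ran from 0.00 to 0.15 at 1340 mg/kg/d and from -0.14 to 0.11 at 2680 mg/kg/d, beside 0.00 over all tested genes in both.

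**Figure D5:**
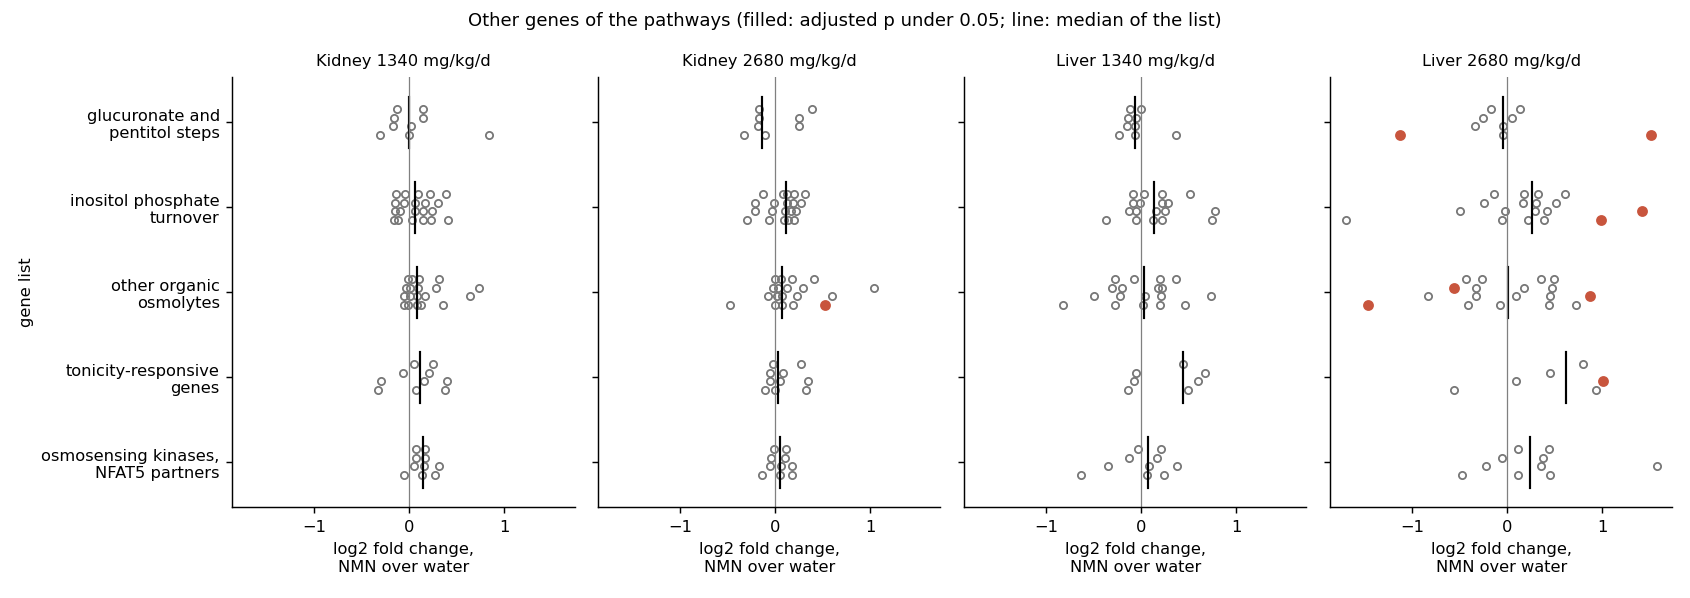
Log2 fold change of NMN over water (horizontal axis) for the tested genes of 5 pathway lists (vertical axis) in each organ and schedule, one point per gene, filled red where the edgeR adjusted p was under 0.05, with a black line at the median of the list. In the kidney 1 gene is filled, at 2680 mg/kg/d, and in the liver 8 are filled, all at 2680 mg/kg/d.

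In the glucuronate and pentitol list, 1 of 9 genes rose and 1 fell at 2680 mg/kg/d in the liver (3.05% and 4.03% of all tested genes), with a median log2 fold change of -0.04 beside 0.00 over all tested genes. Ugdh rose from 187, 131 and 206 CPM with water to 396, 441 and 629 CPM with NMN (log2 fold change 1.51, standard error 0.22, edgeR adjusted p = 0.00404). Its enzyme makes UDP-glucuronate from UDP-glucose, a source of glucuronate other than inositol. Dcxr, the xylulose reductase of the pentose route that takes up the product of Miox, fell from 190.2, 234 and 149.7 CPM to 65.9, 111 and 82.7 CPM (log2 fold change -1.12, standard error 0.20, edgeR adjusted p = 0.0111). At 1340 mg/kg/d in the liver the log2 fold changes were 0.37 for Ugdh and -0.13 for Dcxr, with edgeR adjusted p-values of 0.706 and 0.924, and Dcxr ran from -0.35 to -0.01 with a library left out. In the kidney none of the 9 genes tested at 1340 mg/kg/d and of the 8 at 2680 mg/kg/d was called by edgeR (1 and 3 had an unadjusted p under 0.05).

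In the list of inositol phosphate and phosphatidylinositol turnover, 2 of 18 tested genes rose and 0 fell at 2680 mg/kg/d in the liver (3.05% and 4.03% of all tested genes), with a median log2 fold change of 0.26. Ipmk, the inositol polyphosphate multikinase gene, rose from 65.1, 63.4 and 65.1 CPM with water to 131, 105 and 141 CPM with NMN (log2 fold change 0.99, standard error 0.16, edgeR adjusted p = 0.00654). Ip6k2, an inositol hexakisphosphate kinase gene, rose from 6.07, 5.54 and 6.15 CPM to 10.01, 11.9 and 24.7 CPM (log2 fold change 1.41, standard error 0.33, edgeR adjusted p = 0.0303). Both encode kinases that add phosphate to inositol phosphates. In the liver at 1340 mg/kg/d Ip6k2 had a log2 fold change of 0.75 and Ipmk of 0.22, neither past the threshold (edgeR adjusted p = 0.730 and 0.866), and Ipmk ran from 0.09 to 0.43 with a library left out.

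In the list of other osmolytes, 1 of 18 tested genes rose and 2 fell at 2680 mg/kg/d in the liver (3.05% and 4.03% of all tested genes), with a median log2 fold change of 0.01. Pnpla7, which encodes a lysophospholipase that releases glycerophosphocholine, fell from 227, 195 and 211 CPM with water to 67.7, 90.6 and 68.3 CPM with NMN (log2 fold change -1.46, standard error 0.15, edgeR adjusted p = 0.000731). Bhmt, whose methyltransferase consumes betaine, fell from 4099, 3059 and 2847 CPM to 1982, 2490.0 and 2209.8 CPM (log2 fold change -0.55, standard error 0.15, edgeR adjusted p = 0.0486). Csad, a decarboxylase gene of taurine synthesis, rose from 51.4, 95.03 and 76.9 CPM to 138, 130.2 and 132 CPM (log2 fold change 0.87, standard error 0.21, edgeR adjusted p = 0.0321). In the 1340 mg/kg/d livers none of the list was called by edgeR or DESeq2 (2 had an unadjusted p under 0.05), and Pnpla7 had a log2 fold change of -0.82 (edgeR adjusted p = 0.425).

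The gene called in the kidney was Cdo1, the cysteine dioxygenase gene that starts taurine synthesis. It was 1 of 19 tested genes of the list of other osmolytes, beside 0.4% of all tested genes called at 2680 mg/kg/d. It rose at 2680 mg/kg/d from 169.9, 162 and 171 CPM with water to 226, 236 and 260.5 CPM with NMN (log2 fold change 0.53, standard error 0.08, edgeR adjusted p = 0.0229). In the 1340 mg/kg/d kidneys it was at 104, 111, 91.1 and 118 CPM with water and 156, 133, 124 and 129 CPM with NMN, again without overlap but short of the threshold (log2 fold change 0.36, edgeR adjusted p = 0.215). The call at 2680 mg/kg/d was lost without water replicate 1 (edgeR adjusted p = 0.0670), 2 (0.115) or 3 (0.169) or NMN replicate 3 (0.0919).

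In the list of tonicity-responsive genes, 1 of 6 tested genes rose and 0 fell at 2680 mg/kg/d in the liver (3.05% and 4.03% of all tested genes), with a median log2 fold change of 0.62. Slc38a2, an amino acid transporter gene that hypertonic cells induce, rose from 97.5, 96.7 and 141 CPM with water to 183, 178 and 303 CPM with NMN (log2 fold change 1.01, standard error 0.24, edgeR adjusted p = 0.0346). In the 1340 mg/kg/d schedule it was at 152, 160.0, 177 and 192 CPM with water and 328, 351, 173 and 175 CPM with NMN in the liver, 2 NMN mice high and 2 within the range of the water mice (log2 fold change 0.60, edgeR adjusted p = 0.598). None of the 10 osmosensing kinases and NFAT5 partners was called by edgeR in any of the 4 comparisons, where 1 had an unadjusted p under 0.05 in the kidney at 1340 mg/kg/d and 3 in the liver at 2680 mg/kg/d. DESeq2 called Atm in the liver at 2680 mg/kg/d (adjusted p = 0.00968). The smallest p-values of that list belonged to Wnk1 in the kidney at 1340 mg/kg/d (log2 fold change 0.31, standard error 0.10, edgeR adjusted p = 0.294) and Atm in the liver at 2680 mg/kg/d (1.57, standard error 0.46, edgeR adjusted p = 0.0645).

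Without NMN replicate 1, the library with kidney markers, the log2 fold change in the liver at 2680 mg/kg/d was 1.61 for Ugdh, -0.99 for Dcxr, 0.93 for Ipmk, 1.62 for Ip6k2, -1.41 for Pnpla7 and 1.10 for Slc38a2, all called (edgeR adjusted p from 0.00141 to 0.0410). It was 0.81 for Csad, -0.51 for Bhmt and 1.43 for Atm, none of them called. Ugdh, Ipmk and Pnpla7 passed the threshold of 0.05 in the liver under all 14 alternatives counted for them. The stricter threshold of 0.01 and 2-fold is not among these 14. Under it 2 pathway genes were called, and Ipmk, with a log2 fold change of 0.99, was not past 2-fold. Dcxr was lost without water replicate 2 (edgeR adjusted p = 0.0601) or NMN replicate 3 (0.0531), and Slc38a2 without water replicate 1 (0.121) or 2 (0.138) or NMN replicate 3 (0.111). Ip6k2 was lost without water replicate 1, 2 or 3 or NMN replicate 3 (edgeR adjusted p from 0.0754 to 0.125), and Csad without water replicate 1 or 3 or NMN replicate 1 or 3 (0.0670 to 0.0963) and with all 14 liver libraries in one fit (0.199). Bhmt, close to the threshold, passed under 5 of 14 alternatives. It was lost without any 1 library other than NMN replicate 2 (edgeR adjusted p from 0.0614 to 0.195), with DESeq2 size factors (0.0507), without the robust option (0.0551), with the replicate block (0.0601) and with all 14 liver libraries in one fit (0.360).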

How the data were processed

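The authors aligned the reads with STAR to a mouse build they name as mm19, which could not be matched, and used HTSeq-count (strict intersection, strand ignored) for the number of reads per gene. The deposited values are raw counts for 54446 genes, without normalization or filtering. Lines that name no gene were left out of all totals (no feature 3.27 to 12.8%, ambiguous 1.76 to 5.10%, not unique 10.1 to 19.9% of a library). Symbols, positions and exon lengths came from GENCODE M21, which 53229 identifiers matched with version and 1180 without, while 37 did not match. Promoter windows came from RefSeq on GRCm38.p6.

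Counts were tested in R 4.3.3 with edgeR 4.0.16 (filterByExpr, TMM, robust quasi-likelihood test), NMN against water within each organ and schedule, with Benjamini-Hochberg adjustment over all tested genes and a call at an adjusted p under 0.05. A standard error is the size of the log2 fold change over the root of its F. Printed CPM used one TMM scaling over all 28 libraries, while correlations and the search for like genes used log2 CPM scaled over the 14 kidney libraries alone, including the minimum of 5 CPM. The steps were tested on simulated data. Library totals ran from 12688324 to 33872983 reads. Reads carry no molecular identifiers, so limits derived from them cover counting error only. Nothing states how the mice were housed or processed together. The p-values set a difference between groups against the spread between these libraries, estimated with information shared over genes. They cannot separate it from differences in housing or processing.

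The members and the lists were chosen with earlier results of these data known. All 10 members are named. From each pathway list up to 4 called genes with the smallest adjusted p per comparison are named, or, where none was called, the 2 with the smallest p, and the 5 genes most correlated with Miox and with Slc5a3 in the kidney. The alternatives were DESeq2 1.42.0, its size factors or upper quartile scaling within edgeR, leaving out the low-count filter or asking for 10 counts everywhere, no robust option, a replicate block, all 14 libraries of an organ in one fit, the stricter threshold of 0.01 and 2-fold, CPM of the totals with and without mitochondrial genes, and each library left out in turn. The number of alternatives given for a single gene covers neither the stricter threshold nor the CPM of the totals.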

Additional observations from a re-analysis of the deposited data

Results flagged for a closer look

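Of 39 groups of 4 libraries that were examined for a library far from the others, 1 was flagged, where chance flags about 1 in 20. It was Slc5a11 in the livers of NMN mice gavaged once daily, where 1 library held 3 counts (0.291 CPM) and the other 3 held none.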

How the results depend on the processing

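Calls over all genes moved by more than 1.5 times under several alternatives. In the liver at 1340 mg/kg/d the 2 calls became 74 with DESeq2, 16 with the replicate block, 44 without a filter, 6 with all 14 libraries in one fit and 0 under the stricter threshold (0 to 18 with a library left out). In the liver at 2680 mg/kg/d the 883 calls became 1448 with DESeq2, 1785 without a filter and 135 under the stricter threshold (211 to 1308 with a library left out). In the kidney the 18 calls at 1340 mg/kg/d became 159 with DESeq2, 75 with the replicate block, 269 without a filter, 5 without the robust option and 2 under the stricter threshold (5 to 67), and the 61 calls at 2680 mg/kg/d became 236, 92 and 514 with the first 3 of these, 35 with all 14 libraries and 3 under the stricter threshold (3 to 191). The interaction calls became 99 with DESeq2 in the liver (main 10, 7 to 25 with a library left out) and in the kidney 10 with DESeq2, 0 with at least 10 counts and 2 with the replicate block (main 1, 0 to 1).

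Members called in the kidney at 1340 mg/kg/d became 2 with DESeq2 or without a filter and 1 with the replicate block (0 to 2 with a library left out), and at 2680 mg/kg/d 3 without a filter and 0 under the stricter threshold (0 to 1). In the liver at 2680 mg/kg/d they became 0 under the stricter threshold (1 to 3), and in the liver interaction 0 to 1. Pathway genes called became 2 in the liver at 2680 mg/kg/d under the stricter threshold (3 to 10 with a library left out), 2 in the kidney at 1340 mg/kg/d without a filter, and in the kidney at 2680 mg/kg/d 2 with DESeq2, 8 without a filter and 0 under the stricter threshold (0 to 2). Members higher in the kidney than in the liver became 9 with CPM of the deposited totals and 9 without mitochondrial genes. The cause of these changes was not tested.

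The direction of Impa1 between kidney and liver, called lower in the kidney with TMM, turned with CPM over the totals, as given above. Directions of NMN against water that turned were those of small effects. The log2 fold change of Atm in the liver at 1340 mg/kg/d became 0.10 with the replicate block and ran from -0.36 to 0.45 with a library left out. With a library left out it also crossed 0 in the liver at 1340 mg/kg/d for Csad (-0.0608 to 0.585), Impa1 (-0.0735 to 0.0175), Miox (-0.0354 to 0.194) and Slc6a6 (-0.188 to 0.0388), and at 2680 mg/kg/d for Impa2 (-0.0945 to 0.420). In the kidney it crossed 0 for Isyna1 at 1340 mg/kg/d (-0.00968 to 0.145) and for Impa1 (-0.137 to 0.0321) and Nfat5 (-0.0628 to 0.0778) at 2680 mg/kg/d.

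Replicate numbers are shared by NMN and water mice, but nothing says that they mark a litter or a day. Deviations of same-numbered libraries correlated between -0.10 and 0.16, and in the liver at 2680 mg/kg/d each library correlated best with its own number, a hint from the data only. With the replicate block Bhmt was no longer called in the liver (edgeR adjusted p = 0.0601) and Atm was called (0.0365), and the 3 members stayed past the threshold. With 3 or 4 mice per group, log2 fold changes of scarce genes such as Miox and Slc5a11 in the liver could not be resolved.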
